A study of Mus musculus with 4 samples.

Results

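The 9 genes described here encode factors of the AP-1 and immediate early type. They are the Fos family members Fos, Fosb, Fosl1 and Fosl2, the Jun family members Jun, Junb and Jund, the zinc finger factor Egr1, and Atf3 of the ATF family. They were taken by gene symbol from a table of 52636 genes, and each symbol occurred once. The RNA was from C2C12 cells, myoblasts of the mouse that form myotubes when they differentiate, held in adipogenic medium for as long as 8 days. The tested cells also received 50 µM sesaminol, a sesame lignan, in 2 libraries, and the control cells, in the same medium, received none, in 2 libraries. The labels do not tie the libraries to separate cultures, so the spread behind each p-value is that of these samples and may be technical.

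AP-1 is a dimer of basic leucine zipper proteins that binds short DNA motifs. Fos proteins do not pair with each other and need a Jun partner, whereas Jun proteins can also pair among themselves. Transcription of most of these genes is switched on within minutes of a growth factor or stress signal through MAP kinases, serum response factor (SRF) and CREB, and is then shut off again. In myoblasts, forced expression of Fos or Jun is known to hold back differentiation, and Fosl1 and Fosl2 are known to come on later and last longer than Fos.

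Of the 9 genes 8 were tested and 1, Fosl1, rose with sesaminol, by 2.74-fold, where 2.72% of all tested genes rose. Egr1 was 1.91-fold lower and Junb 1.41-fold lower, in both sesaminol libraries below both controls, but neither passed the test. Fosb was 2.17-fold higher, with both sesaminol libraries above both controls, and did not pass. The groups did not overlap for 47% of all tested genes (24.2% higher and 22.8% lower). For Atf3, Fos, Egr1 and Jun the sesaminol libraries lay farther apart than for most genes, and Fosl2 differed little. Jund was too sparse to test.

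Promoter windows of 7 of the 9 genes were taken from RefSeq (GRCm38.p6). Each window was 300 bases, running from 250 before the start of transcription to 50 after it. No window was taken for Fosl1 or Egr1, whose promoters were left out of the search. The 3 first shown belong to genes whose sesaminol libraries lay on both sides of a control library, and Junb, last, was lower in both sesaminol libraries than in the controls. Capitals mark matches to the motifs searched, which were TGANTCA and TGANNTCA (AP-1 and CRE-like sites, the same on both strands), TGACGT (the core of a CRE, both strands), TATAAA (both strands) and the CArG box that SRF binds.
Jun, chr4:95052173-95052472, minus strand: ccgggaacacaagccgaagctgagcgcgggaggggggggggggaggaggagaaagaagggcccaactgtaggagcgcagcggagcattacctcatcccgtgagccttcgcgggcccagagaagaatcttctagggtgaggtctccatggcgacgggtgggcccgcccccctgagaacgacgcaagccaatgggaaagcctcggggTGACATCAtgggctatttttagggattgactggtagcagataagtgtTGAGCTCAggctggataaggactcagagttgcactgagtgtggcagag
Fos, chr12:85473640-85473939, plus strand: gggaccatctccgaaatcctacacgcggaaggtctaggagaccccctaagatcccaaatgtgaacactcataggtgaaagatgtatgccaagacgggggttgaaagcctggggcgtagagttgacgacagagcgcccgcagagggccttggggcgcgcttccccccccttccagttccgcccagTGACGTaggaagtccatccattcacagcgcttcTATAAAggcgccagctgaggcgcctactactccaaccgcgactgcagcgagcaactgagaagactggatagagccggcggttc
Atf3, chr1:191183284-191183583, minus strand: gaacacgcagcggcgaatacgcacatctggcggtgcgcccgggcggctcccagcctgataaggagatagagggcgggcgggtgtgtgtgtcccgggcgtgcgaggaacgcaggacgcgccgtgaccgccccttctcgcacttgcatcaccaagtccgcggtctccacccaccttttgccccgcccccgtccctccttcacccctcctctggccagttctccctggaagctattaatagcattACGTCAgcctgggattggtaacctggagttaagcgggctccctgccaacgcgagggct
Junb, chr8:84978699-84978998, minus strand: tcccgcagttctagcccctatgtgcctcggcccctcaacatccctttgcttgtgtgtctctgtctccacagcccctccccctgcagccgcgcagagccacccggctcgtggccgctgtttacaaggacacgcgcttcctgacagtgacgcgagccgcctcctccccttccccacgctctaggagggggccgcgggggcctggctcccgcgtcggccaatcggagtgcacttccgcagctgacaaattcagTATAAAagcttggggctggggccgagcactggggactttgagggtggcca
The Jun window held TGANNTCA, as tgacatca, with its first base at position -45 from the start. A further match, tgagctca, began at position 3. The Fos window held TGACGT at position -66 and TATAAA at position -33, and the Atf3 window held TGACGT on the opposite strand at position -8. In Junb the single match was TATAAA, at position 1 from the RefSeq start, which lies 30 bases upstream of the start that GENCODE gives. That Atf3 window lies at a start inside the gene, 34706 bases from the outer start that GENCODE gives. None of the 7 windows held TGANTCA or a CArG box. Sequence more than 250 bases before the start was not searched, so these genes may hold such sites there. Nor does it say anything of Fosl1 or Egr1, as neither was searched. Of 32851 mouse promoter windows, 14.1% held TGANNTCA, 7.81% TGANTCA, 7.51% TGACGT, 13.6% TATAAA and 1.63% a CArG box. A match is a string of letters in the window and was not tied to binding or to any change in these cells.

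Total counts were 15807638 and 24362899 in sesaminol replicates 1 and 2, and 10283135 and 14083165 in control replicates 1 and 2. Levels are given as CPM, counts scaled by library size. A count of 0 allows up to 3 counts, which is 0.112 to 0.298 CPM in these libraries, for counting error only. Mitochondrial genes took 3.36% and 1.44% of counts in sesaminol replicates 1 and 2, against 3.06% and 2.95% in control replicates 1 and 2, so sesaminol replicate 2 stood apart. Of 8 myoblast and muscle markers all were tested and 2, Myod1 and Myog, fell with sesaminol, where 3.24% of all tested genes fell. The others were not called. Among them Myf5 and Vcam1 had log2 fold changes of 0.22 and 0.63 (edgeR adjusted p = 0.783 and 0.105). Those of Des, Pax7, Cdh15 and Chrna1 were negative. The 8 markers summed to 4895 and 3439 CPM in sesaminol replicates 1 and 2, against 6693 and 6552 in control replicates 1 and 2. Des alone had 2781 and 1582 CPM in sesaminol replicates 1 and 2, against 3232 and 3044 in control replicates 1 and 2. In bulk RNA, fewer cells of a type and less RNA per cell cannot be told apart. Adipocyte markers reached 4.69 and 4.32 CPM in sesaminol replicates 1 and 2, against 9.93 and 7.08 in control replicates 1 and 2. Endothelial markers summed to 9.37 and 14.5 CPM in sesaminol replicates 1 and 2, against 12.6 and 9.42 in control replicates 1 and 2, and neural markers to 3.55 and 5.41 against 5.36 and 4.31. Leukocyte markers summed to 48.3 and 47.6 CPM in sesaminol replicates 1 and 2, against 30.3 and 24.7 in control replicates 1 and 2. Of these Cd14 rose, while Ptprc did not exceed 1.53 CPM. Csf1r had 14.7 and 16.2 CPM in sesaminol replicates 1 and 2, against 15.4 and 11.98 in control replicates 1 and 2. Its groups overlapped, and it was not called (log2 fold change 0.18, edgeR adjusted p = 0.78). The part of these marker differences in the results that follow was not tested.

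**Figure D1:**
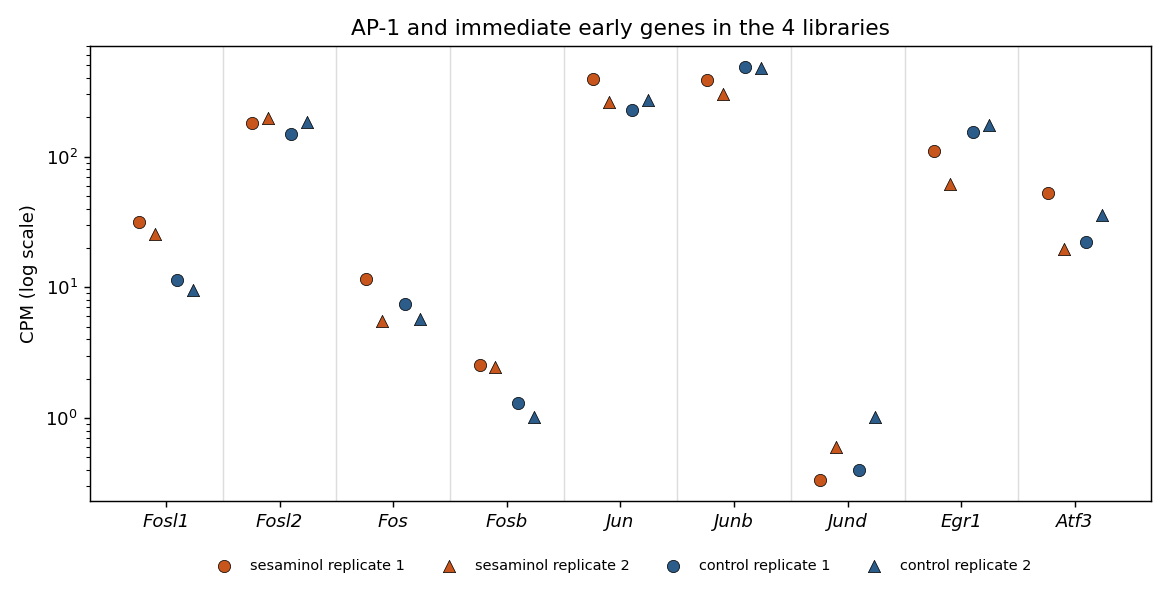
CPM of each of the 9 genes in each library, on a log scale, with sesaminol libraries in orange and control libraries in blue (circles for replicate 1, triangles for replicate 2). Fosl1 and Fosb were higher and Junb and Egr1 lower in both sesaminol libraries than in both controls, where 47% of all tested genes did not overlap. The Atf3, Fos and Jun points of sesaminol replicate 1 lie well above those of sesaminol replicate 2.

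Fosl1, which encodes FRA-1, a Fos protein without the strong activation domain of FOS, had 31.5 and 25.8 CPM in sesaminol replicates 1 and 2, against 11.3 and 9.57 CPM in control replicates 1 and 2. Both sesaminol libraries lay above both controls. Its mean was 28.6 ± 4.04 CPM with sesaminol and 10.4 ± 1.24 CPM in controls (SD, n = 2 each). The gene (ENSMUSG00000024912, chromosome 19, 5447547 to 5455946, plus strand; all gene positions are GRCm38) rose, with a log2 fold change of 1.46 ± 0.21 (SE; edgeR adjusted p = 0.00528). It was called in all 14 alternative settings tried, with fold changes from 2.41 to 3.04 when each library was left out. Of 18998 genes tested, 5.95% were called in either direction and 2.72% were called higher, and 1 of the 8 tested members was.

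The Fosl1 count has a limit of its own. Of its 2033 exonic bases, 1163 overlap exons of Ccdc85b, a gene on the opposite strand, and the library kit named in the labels does not mark strand. Reads from these bases cannot be assigned to either gene. Ccdc85b had 60.7 and 62.1 CPM in sesaminol replicates 1 and 2, against 49.4 and 37.4 CPM in control replicates 1 and 2. It too was higher in both sesaminol libraries, at a log2 fold change of 0.50 ± 0.18 (SE) that missed the threshold (edgeR adjusted p = 0.176). How far the overlap moved the Fosl1 value was not tested.

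Fosl2 (ENSMUSG00000029135, chromosome 5, 32135801 to 32157842, plus strand), which encodes FRA-2, had the highest CPM of the Fos family here. It had 180 and 196 CPM in sesaminol replicates 1 and 2, against 148 and 184 CPM in control replicates 1 and 2. The groups overlapped, and the log2 fold change was 0.18 ± 0.18 (SE; edgeR adjusted p = 0.714). It was not called in any of the 14 settings.

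Fos (ENSMUSG00000021250, chromosome 12, 85473890 to 85477273, plus strand), the founding immediate early gene, had 11.7 and 5.52 CPM in sesaminol replicates 1 and 2, against 7.45 and 5.70 CPM in control replicates 1 and 2. The sesaminol libraries lay on both sides of the controls. Its log2 fold change was 0.38 ± 0.39 (SE; edgeR adjusted p = 0.723). Without sesaminol replicate 1 it was -0.28, and without sesaminol replicate 2 it was 0.84. A fit without a sesaminol library takes its spread from the controls alone.

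Fosb (ENSMUSG00000003545, chromosome 7, 19302696 to 19310051, minus strand), whose protein also occurs as the long-lived ΔFOSB isoform, was sparse. It had 38 and 66 counts in sesaminol replicates 1 and 2, against 13 and 14 counts in control replicates 1 and 2, or 2.54 and 2.46 CPM against 1.29 and 1.02 CPM. Both sesaminol libraries were higher. The log2 fold change was 1.12 ± 0.52 (SE; edgeR adjusted p = 0.312), and it was not called in any setting. Gene counts do not separate the isoforms.

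Jun (ENSMUSG00000052684, chromosome 4, 95049034 to 95052222, minus strand), the partner of all Fos proteins, had 395 and 262 CPM in sesaminol replicates 1 and 2, against 227 and 270 CPM in control replicates 1 and 2. Sesaminol replicate 1 stood above the other 3 libraries, while sesaminol replicate 2 lay between the controls. The log2 fold change was 0.40 ± 0.23 (SE; edgeR adjusted p = 0.438), and it was 0.68 without sesaminol replicate 2 and 0.03 without sesaminol replicate 1. The antisense gene Junos overlaps 7.28% of the exonic bases of Jun. Junos had 91.1 and 78.5 CPM in sesaminol replicates 1 and 2, against 54.2 and 64.0 CPM in control replicates 1 and 2, and its log2 fold change was 0.52 ± 0.17 (SE; edgeR adjusted p = 0.140).

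Junb (ENSMUSG00000052837, chromosome 8, 84974484 to 84978718, minus strand), known to restrain JUN in some settings and to keep muscle mass up in mice, had 383 and 302 CPM in sesaminol replicates 1 and 2, against 488 and 476 CPM in control replicates 1 and 2. Both sesaminol libraries were lower. The log2 fold change was -0.49 ± 0.20 (SE; edgeR adjusted p = 0.247). It passed the test in 1 of 14 settings, at -0.72 without sesaminol replicate 1, a fit whose spread is that of the controls alone. Its 3′ end shares 7.52% of its exonic bases with Prdx2 on the opposite strand, a gene with a log2 fold change of -0.17 ± 0.19 (SE; edgeR adjusted p = 0.750).

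Jund (ENSMUSG00000071076, chromosome 8, 70698949 to 70700616, plus strand), usually a steadily expressed Jun gene, had 5 and 16 counts in sesaminol replicates 1 and 2, against 4 and 14 counts in control replicates 1 and 2, and was not tested. The antisense gene Gm11175, which covers 877 of its 1668 exonic bases, had 4 and 16 counts in sesaminol replicates 1 and 2, against 4 and 14 in control replicates 1 and 2. The counts of the pair thus differed by 1 count in 1 library, although 791 exonic bases of Jund lie outside Gm11175. RefSeq places the start of Jund 1210 bases before that of GENCODE. Why its count was so low was not tested, and its level is not read as low expression here.

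Egr1 (ENSMUSG00000038418, chromosome 18, 34859823 to 34864984, plus strand), a zinc finger factor driven by SRF and ERK, had 110 and 62.2 CPM in sesaminol replicates 1 and 2, against 154 and 175 CPM in control replicates 1 and 2. Both sesaminol libraries were lower. The mean was 86.3 ± 34.2 CPM with sesaminol and 164 ± 15.5 CPM in controls (SD, n = 2 each). The log2 fold change was -0.93 ± 0.26 (SE) and missed the threshold (edgeR adjusted p = 0.0741). It was negative in all 14 alternatives and called in 6, among them DESeq2 (adjusted p = 0.00846). The 6 include the fits without sesaminol replicate 1 and without sesaminol replicate 2, at log2 fold changes of -1.45 and -0.57. Those 2 fits take their spread from the controls alone.

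Atf3 (ENSMUSG00000026628, chromosome 1, 191170296 to 191218039, minus strand), a stress-induced factor that pairs with Jun proteins and often represses, had 53.0 and 19.5 CPM in sesaminol replicates 1 and 2, against 22.05 and 35.5 CPM in control replicates 1 and 2. The sesaminol libraries lay above and below both controls. The log2 fold change was 0.32 ± 0.41 (SE; edgeR adjusted p = 0.793). It was -0.62 without sesaminol replicate 1 and 0.88 without sesaminol replicate 2, so its direction rested on which of these libraries was used.

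**Figure D2:**
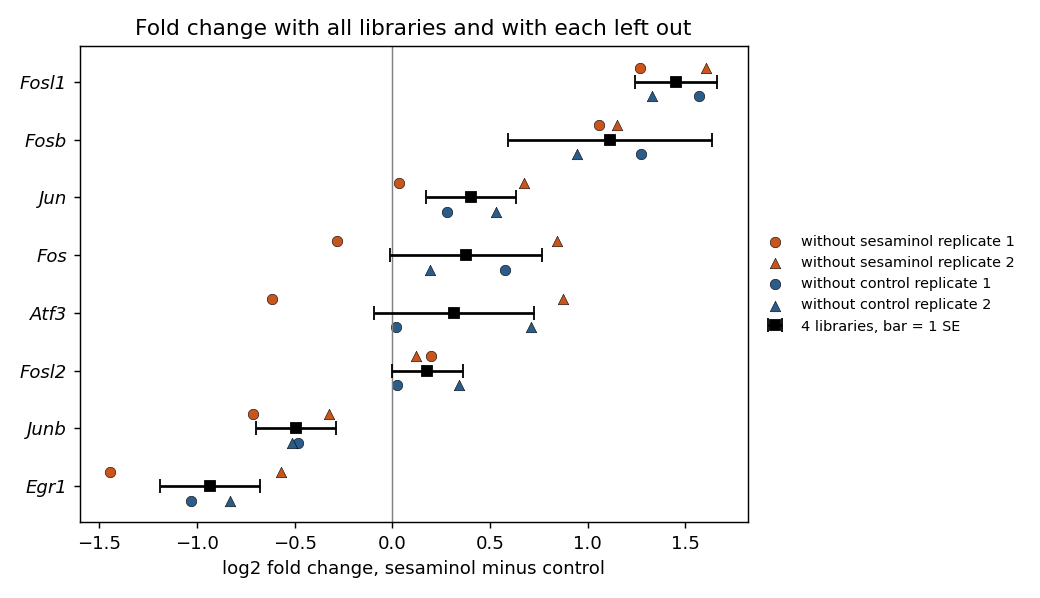
Log2 fold change, sesaminol minus control, for the 8 tested genes (black squares, bars of 1 SE) and with each library left out in turn (orange for a sesaminol library, blue for a control). Fosl1 stays between 1.27 and 1.605, Egr1 between -1.45 and -0.57, and Atf3 and Fos change sign without sesaminol replicate 1.

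No member was called lower by edgeR, where 3.24% of all tested genes were. At an unadjusted p under 0.05 the count was 2 lower (Junb and Egr1) and 1 higher (Fosl1). Of the 18998 tested genes, 3394 were under that cut-off in either direction. DESeq2 called 1 lower and 1 higher, and limma-voom 0 lower and 1 higher. The median log2 fold change over the 8 tested members was 0.35, against 0.02 over all tested genes. The groups did not overlap for Fosl1, Fosb, Junb and Egr1, 4 of the 8 tested, where 47% of all tested genes did not overlap (24.2% higher and 22.8% lower). Members called higher numbered 4 without sesaminol replicate 2, and members called lower 3 without sesaminol replicate 1 and 1 without sesaminol replicate 2. Over all genes the same fits called 1568 higher without sesaminol replicate 2, against 516 with all libraries, and 2724 and 1371 lower without sesaminol replicate 1 or 2, against 615 with all libraries.

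The sesaminol libraries lay farther apart than the controls, with a median absolute log2 gap over the members of 0.47 between sesaminol libraries and 0.27 between controls, and over all tested genes of 0.34 and 0.20. Of the 8 tested members, 7 were higher in sesaminol replicate 1 than in sesaminol replicate 2, against 49.1% of all tested genes. Atf3 was farthest apart, by 1.44 on the log2 CPM scale, a gap larger than that of 93.8% of tested genes. Fos followed at 1.06, Egr1 at 0.83 and Jun at 0.59, while Fosl2 was lower in sesaminol replicate 1, at -0.12. Between control replicates 1 and 2 the gaps were 0.38 for Fos, -0.19 for Egr1, -0.25 for Jun and -0.68 for Atf3. The mitochondrial share given above moved with the same libraries, and its part in these gaps was not tested.

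Levels of different genes were compared as CPM per kb of exon. Fosl1 was divided by all of its 2033 exonic bases, though 1163 of them overlap Ccdc85b, so its level and rank per kb carry that limit. In both groups Junb ranked first and Jun second. Junb had 149 ± 24.99 CPM per kb with sesaminol and 209 ± 3.63 CPM per kb in controls, and Jun 103 ± 29.6 and 77.9 ± 9.37 CPM per kb in the same order (SD, n = 2 each). Egr1 ranked next in controls, at 36.7 ± 3.45 CPM per kb. With sesaminol, Fosl2 (19.4 ± 1.16), Egr1 (19.3 ± 7.62), Atf3 (16.8 ± 11.0) and Fosl1 (14.1 ± 1.99 CPM per kb) followed in that order, and neighbours among them differed by less than the larger of their SDs. In controls Fosl1 stood at 5.14 ± 0.61 CPM per kb, below Atf3 at 13.4 ± 4.41 and Fosl2 at 17.1 ± 2.62. Fos had 3.65 ± 1.84 CPM per kb with sesaminol and 2.79 ± 0.53 in controls, and Fosb had 0.40 ± 0.01 and 0.19 ± 0.03 CPM per kb in the same order.

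The make-up of both families was described from the same levels, without a test. Fosl1 made up 39.2% and 35.5% of Fos family CPM per kb in sesaminol replicates 1 and 2, against 23.0% and 17.9% in control replicates 1 and 2. The Fos family sum was 39.4 and 35.7 CPM per kb in sesaminol replicates 1 and 2, against 24.2 and 26.3 in control replicates 1 and 2. The ratio of Jun to Junb, per kb, was 0.744 and 0.626 in sesaminol replicates 1 and 2, against 0.336 and 0.409 in control replicates 1 and 2. In both measures the groups did not overlap, as was so for the CPM of 47% of all tested genes. These are descriptions built from the members' own values, and the Fosl1 share and the Fos family sum carry the overlap with Ccdc85b. The Jun family sum was 291 and 214 CPM per kb in sesaminol replicates 1 and 2, against 284 and 292 in control replicates 1 and 2, and overlapped. It is in effect a sum of Jun and Junb, because Jund, whose low count is unexplained, added little.

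**Figure D3:**
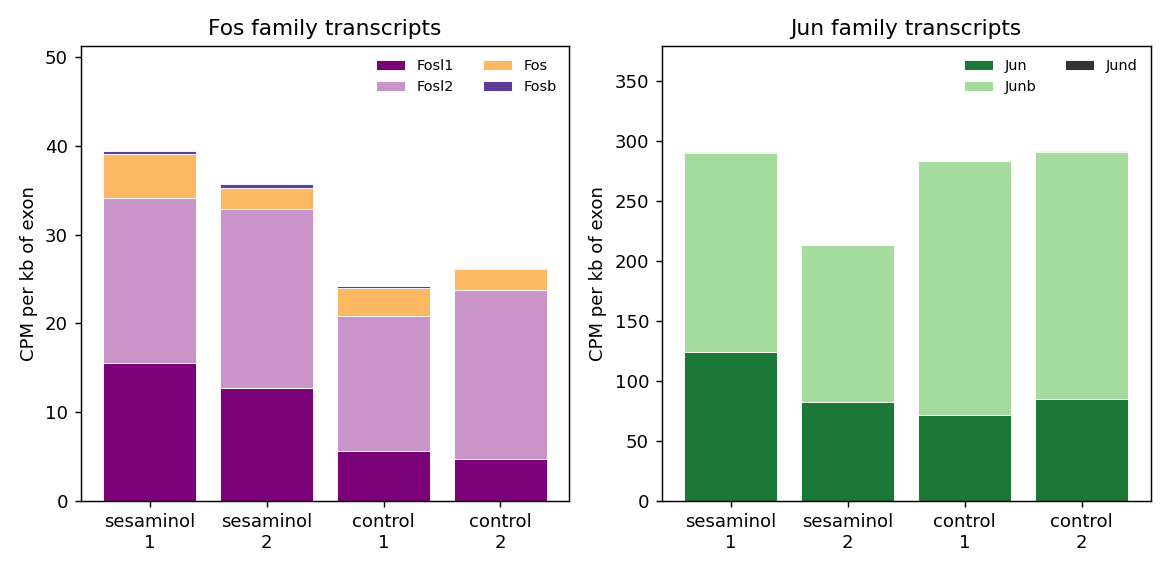
Stacked CPM per kb of exon for the Fos family (left) and the Jun family (right) in the 2 sesaminol and 2 control libraries; bars start at 0. The Fosl1 segment is larger in both sesaminol libraries, at 15.5 and 12.7 against 5.57 and 4.71 CPM per kb, and the Junb segment is smaller. The Jund segment, of unexplained low count, is too small to be seen.

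Genes of the signalling route that is known to switch on immediate early genes were listed as kinases and as SRF and CREB factors. With 5.95% of all tested genes called, lists this short would hold few calls or none at that share. Of 27 tested Ras, Raf and MAP kinase genes, 0 were called by edgeR, DESeq2 or limma-voom. At an unadjusted p under 0.05, 3 were higher and 1 lower, beside 3394 of all 18998 tested genes in either direction. Mapk12, the p38 gamma gene of muscle, had 35.3 and 32.8 CPM in sesaminol replicates 1 and 2, against 55.0 and 47.5 CPM in control replicates 1 and 2 (edgeR adjusted p = 0.0821). Of 12 genes for SRF, its ternary complex partners, CREB and their cofactors, 0 were called by any of the 3 tools and 0 were under an unadjusted p of 0.05. Srf, Elk1 and Creb1 had log2 fold changes of -0.14 ± 0.19, -0.00 ± 0.22 and 0.30 ± 0.18 (SE), and the SRF coactivator genes Mkl1 and Mkl2 0.36 ± 0.17 and 0.31 ± 0.16. Some genes of both lists were called when sesaminol replicate 1 or 2 was left out, fits that also called more genes over all tested genes.

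Feedback genes of the MAP kinase pathway, many of them switched on by ERK itself, gave 2 higher and 1 lower of 18 tested (median log2 fold change 0.27). Over all tested genes the shares were 2.72% higher and 3.24% lower. Dusp4, a nuclear phosphatase of ERK and JNK, rose 2.84-fold, with 54.8 and 111 CPM in sesaminol replicates 1 and 2, against 28.3 and 30.4 CPM in control replicates 1 and 2 (edgeR adjusted p = 0.0191). Its fold was 1.87 without sesaminol replicate 2. Spred2, a Ras-Raf inhibitor, rose 1.82-fold (edgeR adjusted p = 0.0207; leaving out control replicate 1 or 2 gave 0.26 or 0.16). Errfi1, a feedback inhibitor of the EGF receptor, fell 1.57-fold (edgeR adjusted p = 0.0474), but was not called by DESeq2 (0.0516), by limma-voom (0.0535) or without control replicate 1 or 2 (0.309 and 0.522). Dusp1, itself an immediate early gene, had a log2 fold change of 0.38 ± 0.17 (SE; edgeR adjusted p = 0.277). Without control replicate 1 or 2, 1 gene rose and 0 fell. More genes of the list were called without sesaminol replicate 1 or 2, as was so over all tested genes.

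Among 32 other immediate early genes tested, 2 rose and 5 fell (median log2 fold change -0.19), beside 2.72% and 3.24% of all tested genes. Ier3, a survival factor, rose 4.69-fold, with 127 and 145 CPM in sesaminol replicates 1 and 2, against 33.0 and 25.3 CPM in control replicates 1 and 2 (edgeR adjusted p = 0.000785). Maff, a small Maf protein without an activation domain, rose 3.46-fold, with 97.1 and 118 CPM in sesaminol replicates 1 and 2, against 31.6 and 30.6 CPM in control replicates 1 and 2 (edgeR adjusted p = 0.00124). Both were called in all 14 alternatives.

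Both tested paralogs of Egr1 fell. Egr3 fell 3.36-fold, with 15.1 and 11.0 CPM in sesaminol replicates 1 and 2, against 43.2 and 44.0 CPM in control replicates 1 and 2 (edgeR adjusted p = 0.00195), and was called in all 14 alternatives. Egr2, named after its values were seen, fell 2.66-fold (edgeR adjusted p = 0.0492), at 3.21 and 3.13 CPM in sesaminol replicates 1 and 2, against 6.75 and 10.1 CPM in control replicates 1 and 2. It was called in 8 of 14 alternatives, and without control replicate 1 or 2 its adjusted p was 0.098 and 0.659. Klf5, a zinc finger factor, fell 2.34-fold, Zfp36l1, which promotes mRNA decay, 1.86-fold, and Cyr61, a secreted matrix protein and YAP target, 1.82-fold. Without control replicate 1, Zfp36l1 and Cyr61 missed the threshold (0.0887 and 0.168), and without control replicate 2 so did Klf5, Zfp36l1 and Cyr61 (0.0541, 0.266 and 0.264). Zfp36l1 shares 55.9% of its exonic bases with the lincRNA Gm26669, whose count was 96.0% of its own. Ier2, a classical immediate early gene, had a log2 fold change of -0.53 ± 0.23 (SE; edgeR adjusted p = 0.264). Falls were fewer without control replicate 1 or 2 and more without sesaminol replicate 1 or 2, and rises were more without sesaminol replicate 2. The same was so over all tested genes.

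Of 19 further basic leucine zipper genes tested, 1 rose (Maff, also in the list above) and 1 fell, beside 2.72% and 3.24% of all tested genes. The gene that fell was Mafa, a large Maf factor, with 30.6 and 36.6 CPM in sesaminol replicates 1 and 2, against 69.6 and 76.1 CPM in control replicates 1 and 2 (2.17-fold, edgeR adjusted p = 0.00649). It was called in all 14 alternatives. The median of the list was 0.26 on the log2 scale. Leaving out sesaminol replicate 1 or 2 gave more calls in the list, as it did over all tested genes. Of 16 ATF4 and stress genes, which often move with Atf3, 0 were called by edgeR, DESeq2 or limma-voom. At an unadjusted p under 0.05, 4 were higher and 1 lower, beside 3394 of all 18998 tested genes in either direction. The p53 regulator Mdm2 and the mTOR inhibitor Ddit4, with the smallest p, had log2 fold changes of 0.52 ± 0.16 and 0.66 ± 0.21 (SE; edgeR adjusted p = 0.115 and 0.126). Some of the 16 were called when sesaminol replicate 1 or 2 was left out, fits that also called more genes over all tested genes.

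Genes known as AP-1 targets in other cells moved both ways. Of 25 tested, 6 rose, 3 fell and 16 were not called, with a median log2 fold change of 0.11. Of all tested genes, 2.72% rose and 3.24% fell. The EGF receptor ligand Ereg rose 3.39-fold, with 15.1 and 16.9 CPM in sesaminol replicates 1 and 2, against 4.27 and 5.11 CPM in control replicates 1 and 2 (edgeR adjusted p = 0.00556). Ptgs2, the inducible cyclooxygenase, rose 3.22-fold, Hmga1, a chromatin protein and FRA-1 target, 3.08-fold, and the heme oxygenase Hmox1 1.80-fold. Hmga1 shares 4.8% of its exonic bases with AI413582, a gene of higher count. Areg, another ligand of that receptor, rose 4.75-fold, and was singled out with its values known. It had 7.37 and 4.70 CPM in sesaminol replicates 1 and 2, against 1.19 and 1.31 CPM in control replicates 1 and 2. The control values rest on only 12 and 18 counts.

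The 3 that fell were led by Plau, the urokinase gene, with 23.8 and 18.4 CPM in sesaminol replicates 1 and 2, against 94.5 and 83.7 CPM in control replicates 1 and 2 (4.24-fold, edgeR adjusted p = 0.000941). Hbegf, also an EGF receptor ligand and itself quickly induced, fell 5.38-fold, with 3.75 and 3.43 CPM in sesaminol replicates 1 and 2, against 17.9 and 20.7 CPM in control replicates 1 and 2 (edgeR adjusted p = 0.0014). The cytokine Lif fell 3.22-fold (edgeR adjusted p = 0.0141, but 0.0601 when control replicate 1 was left out). Plau, Hbegf, Ereg, Ptgs2 and Hmga1 were called in all 14 alternatives. Without control replicate 1 or 2, Hmox1 (0.264 and 0.233) and Areg (0.112 and 0.115) missed the threshold, and the list had 3 rises in either case. Leaving out sesaminol replicate 1 or 2 gave more calls in the list, and more over all tested genes too. Mmp3, Mmp9 and Mmp13, classical AP-1 targets, had 0 to 16 counts per library and were not tested.

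Of 19 growth factor and receptor genes upstream of the pathway, 1 rose and 4 fell (median log2 fold change -0.11), beside 2.72% and 3.24% of all tested genes. Hgf, a muscle cell mitogen, rose 2.58-fold, with 18.5 and 27.3 CPM in sesaminol replicates 1 and 2, against 7.55 and 10.2 CPM in control replicates 1 and 2 (edgeR adjusted p = 0.0184, but 0.0995 when control replicate 1 was left out). Pdgfb fell 3.46-fold (edgeR adjusted p = 0.00416) and its receptor Pdgfrb 2.19-fold (0.0113; leaving out control replicate 1 or 2 gave 0.0638 or 0.107). The receptors Erbb3 and Fgfr4 fell 2.35-fold and 2.47-fold, and Fgfr4 missed the threshold without control replicate 1 or 2 (0.079 and 0.126). Falls were fewer without control replicate 1 or 2 and more without sesaminol replicate 1 or 2. Rises were fewer without control replicate 1 and more without sesaminol replicate 1. The same was so over all tested genes.

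**Figure D4:**
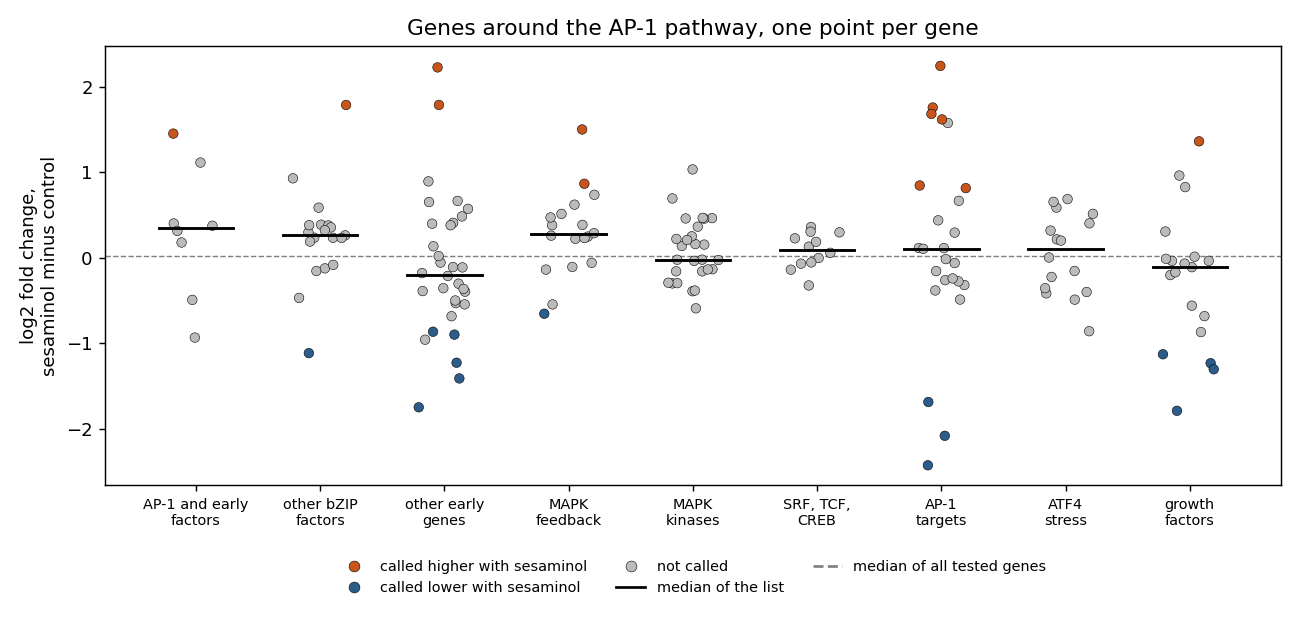
Log2 fold change, sesaminol minus control, of each tested gene in the 9 lists, with genes called higher in orange, called lower in blue and not called in grey; black lines are list medians and the dashed line the median of all tested genes, 0.02. Calls are few among kinases and SRF and CREB genes (0 each) and go both ways among the AP-1 targets (6 higher, 3 lower).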

How the data were processed

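Per the labels' protocols, poly(A)-selected RNA of C2C12 cells was made into 4 libraries. The authors deposited raw counts per gene, not normalized. The submitters' processing notes name the build GRCm38 and, among other tools, fastp, featureCounts and edgeR. Aligner, strand setting and annotation release: not given in the sources used here. Even numbers made up 75.8% to 79.6% of the values between 1 and 12, so both reads of a pair may have been counted singly.

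After filterByExpr, with a count minimum of 10 and a total minimum of 15, 18998 genes were tested. Libraries were scaled by TMM and compared with edgeR 4.0.16 (R 4.3.3), glmQLFit and glmQLFTest on all 4 libraries, two-sided, with Benjamini-Hochberg adjustment over all tested genes and a threshold of 0.05. Called, rose and fell refer to this test. Fold changes are sesaminol over control, or the inverse for falls, and SE is the absolute log2 fold change over the root of F. CPM use TMM effective library sizes. Exonic lengths and overlaps are from GENCODE M21 (GRCm38; 52489 of 52636 identifiers matched). Neither pair of libraries within a group was a duplicate (chi-square per degree of freedom 44.8 for the sesaminol pair and 6.95 for the controls).

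The members and gene lists were chosen with earlier results of these data known. Named list genes are up to 4 called genes a direction with the smallest adjusted p, or the 2 with the smallest p where none was called, and Srf, Elk1, Creb1, Dusp1 and Ier2; some genes that the rule takes are not reported here. Of the 36 list genes taken, 6 overlap an exon of a gene with at least 20% of their count (Elk1, Dusp1, Zfp36l1, Mkl1, Mkl2 and Hmga1). Maff, Dusp1, Creb1, Atf4, Ddit3 and Gadd45a stand in more than 1 list. The 14 alternatives were other scalings and filters, DESeq2 1.42.0, limma-voom 3.58.1, thinned counts, the replicate number as a block, leaving out each library, and, added after the data were seen, halved counts. With a library left out, the lone one is taken to have the other group's spread. Scripts were tested on simulated counts. Figures used matplotlib 3.10.9 in Python 3.11.15.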

Additional observations from a re-analysis of the deposited data

How the results depend on the processing

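Fosl1, Maff, Ier3, Egr3, Mafa, Plau and Hbegf kept their direction and call in all 14 alternatives. Over all genes, 516 rose and 615 fell; with no filter on low counts 928 and 985 did, with the replicate number as a block 893 and 982, and with a library left out 163 to 1918 and 276 to 2724. Members called higher numbered 1 to 4 and called lower 0 to 3 with a library left out. The single member called lower (Egr1) with the total count only, with DESeq2, with no filter on low counts and with the replicate block made that count 1 in each. Atf3 reversed without sesaminol replicate 1, with log2 fold changes from -0.62 to 0.88 as each library was left out. Fos (-0.28 to 0.84), Srf (-0.42 to 0.079) and Elk1 (-0.39 to 0.29) also changed sign with a library left out, Fos without sesaminol replicate 1, Srf without sesaminol replicate 2 and Elk1 without sesaminol replicate 2 or control replicate 2 (0.032). Elk1, close to 0, was 0.046 with the total count only and 0.022 with no filter. The cause of these shifts was not tested. A fit without a sesaminol library takes its spread from the controls alone, which bears on its calls but does not set the sign of a fold change. Same-numbered libraries did not deviate together (correlation -0.05 across genes), and nothing in the labels pairs them. With no filter, the other bZIP list had 2 higher, the other immediate early list 4 higher, the stress list 3 higher and 1 lower, and the growth factor list 2 higher. With the block, the stress list had 2 higher and 1 lower, the growth factor list 2 higher and the kinase list 1 lower. Errfi1 accounts for 0 lower in the feedback list with the total count only, DESeq2 and limma-voom. Low counts limit Fosb, Mmp3, Mmp9 and Mmp13, and the reason for them was not tested. With 2 libraries a group, a change of the size seen for Junb or Fos cannot be told from the spread.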
